A study of Mus musculus with 4 samples.

Results

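The venous endothelial identity genes described here are the 10 genes Nr2f2, Slc6a2, Vwf, Car8, Prss23, Ephb4, Amigo2, Bst1, Cpe and Ackr1, taken by symbol from a deposited table of 17915 genes; vein genes that act as leukocyte adhesion molecules were left out of the set. They were measured by bulk RNA sequencing in 4 libraries of sorted mouse lung endothelial cells, 2 of tdTomato+ cells and 2 of ZsGreen+ cells. Both groups carried the genotype Cdh5-CreER;aSMA-LSL-Dre;NR1, received tamoxifen 5 times and were taken 6 weeks past TAC, transverse aortic constriction, a surgical narrowing of the aorta, so no library comes from mice without TAC. The labels give no strain or age and do not say whether mice were pooled. The Cdh5 promoter drives the inducible Cre in endothelium, so ZsGreen marks endothelial cells of any vessel type. Within endothelium, tdTomato marks the cells in which the alpha smooth muscle actin (aSMA) locus was active at some time after Cre had acted. The recorded mark reports a past event and not the state at harvest. In bulk libraries of this kind, a lower number of cells of one vessel type and less RNA per cell cannot be told apart.

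Veins and venules return blood from capillaries, and their endothelium keeps a gene programme distinct from that of arteries, capillaries and lymphatics. Nr2f2 encodes COUP-TFII, a nuclear receptor that maintains venous fate in development by holding down Notch signalling, and EphB4 is the venous receptor of ephrin-B2, a ligand on arterial endothelium. The other genes of the set are products of mature venous cells: secreted or stored proteins, a transporter, a chemokine-binding receptor, surface molecules and a carbonic anhydrase-related protein.

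Total counts over the table ran from 17050673 to 18574737 per library, and all 10 venous genes passed the filter on low counts that left 13177 genes for the test. The 16 pan-endothelial genes listed, among them Cdh5 and Pecam1, summed to 15823 and 15592 CPM in the tdTomato+ pair and to 20002 and 16229 CPM in the ZsGreen+ pair. Acta2, the aSMA gene itself, rose in tdTomato+ cells, from 87.6 and 82.9 CPM in the ZsGreen+ pair to 304 and 527.5 CPM (2.29 on the log2 scale, edgeR adjusted p = 0.0432). CPM are counts per 1000000 after scaling of library sizes and serve to compare a gene between libraries, while TPM are per length and serve to compare genes with each other. Each log2 fold change compares tdTomato+ with ZsGreen+ cells and carries a standard error (SE), and a gene is said to have risen or fallen where the edgeR p adjusted over all 13177 genes was under 0.05. Whether the 2 biological replicates of a group, or libraries with the same number, came from separate mice is not stated, so the p-values reflect only how these 4 libraries vary, which may be technical.

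Cpe and Car8 rose in tdTomato+ cells, by 3.41-fold and 3.14-fold, and no venous gene fell. That is 2 of 10, beside 0.167% of all tested genes called higher and 0.304% called in either direction. At an unadjusted edgeR p under 0.05 stood 5 of the 10, beside 1155 of the 13177 genes tested. DESeq2 called 3 of the 10, beside 330 of 13500 genes. These counts over all genes are also the background for the lists below. The members and lists were chosen with earlier results of these data known, so such shares are a description and test no enrichment. The log2 fold change was above 0 for 9 of the 10 genes, with a median of 1.10 against -0.01 over all genes tested. For 5 genes, Vwf, Car8, Amigo2, Cpe and Ackr1, both tdTomato+ libraries lay above both ZsGreen+ libraries, which 19.9% of all tested genes also did. The groups overlapped for Nr2f2, Slc6a2, Prss23, Ephb4 and Bst1.

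**Figure D1:**
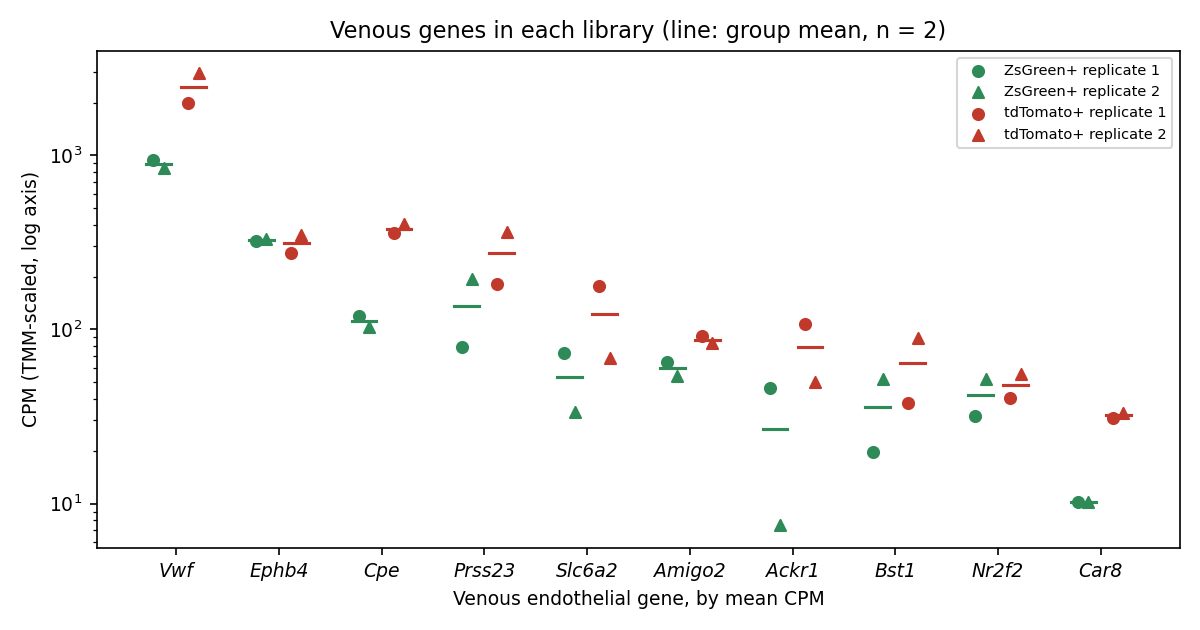
Level of each venous gene in CPM (log axis) in the 4 libraries, with circles for replicate 1, triangles for replicate 2 and a line at the group mean. The 2 Cpe values and the 2 Car8 values of each group lie close together and far from the other group, whereas the 2 ZsGreen+ values of Ackr1 stand at 46.1 and 7.50 CPM.

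On the per-length scale, Vwf was the most abundant venous gene in 3 libraries and Car8 the least abundant in all 4. In tdTomato+ cells Vwf was followed by Cpe (303 ± 14.9 TPM, SD, n = 2), Prss23 (234 ± 103 TPM), Ackr1 (130.2 ± 71.9 TPM) and Ephb4 (120 ± 15.7 TPM). Below these came Amigo2 (50.6 ± 4.72 TPM), Bst1 (47.4 ± 26.3 TPM), Slc6a2 (33.7 ± 22 TPM), Nr2f2 (18.8 ± 3.57 TPM) and Car8 (9.21 ± 0.099 TPM). In this order 3 of 9 neighbouring pairs had libraries that did not overlap: Vwf above Cpe, Ephb4 above Amigo2 and Nr2f2 above Car8. In ZsGreen+ cells the order was Vwf (148 ± 5.19 TPM), Ephb4 (113 ± 14.3 TPM), Prss23 (112 ± 78.6 TPM), Cpe (79.9 ± 1.29 TPM) and Ackr1 (36.8 ± 35.2 TPM). Amigo2 (31.3 ± 0.424 TPM), Bst1 (25.2 ± 18.2 TPM), Nr2f2 (15.2 ± 6.91 TPM), Slc6a2 (12.6 ± 5.37 TPM) and Car8 (2.65 ± 0.311 TPM) followed. Here too 3 of 9 neighbouring pairs stood apart: Vwf above Ephb4, Cpe above Ackr1 and Slc6a2 above Car8. Cpe lay below Ephb4 in both ZsGreen+ libraries and above it in both tdTomato+ libraries.

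**Figure D2:**
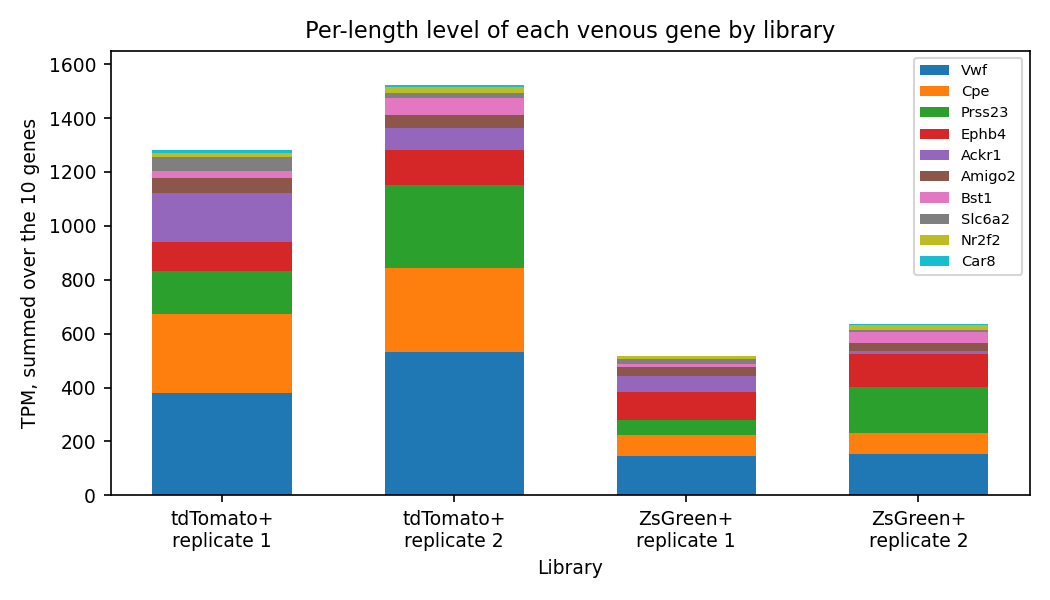
TPM of the 10 venous genes stacked by library; the height is their sum. The sum was 1280 and 1525 TPM in tdTomato+ libraries and 518 and 636 TPM in ZsGreen+ libraries, and the Ephb4 segment keeps nearly the same height in all 4.

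The 10 genes summed to 1280 and 1525 TPM in tdTomato+ libraries and to 518 and 636 TPM in ZsGreen+ libraries. Vwf made up 29.6% and 34.9% of that sum in tdTomato+ cells and 27.9% and 23.9% in ZsGreen+ cells. Cpe made up 22.9% and 20.6% against 15.3% and 12.7%, and Ephb4 8.48% and 8.58% against 19.9% and 19.3%.

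Cpe, carboxypeptidase E, removes basic residues from the ends of peptide prohormones after their first cleavage. It stood at 357 and 403 CPM in the tdTomato+ pair against 120 and 103 CPM in the ZsGreen+ pair. The groups were far apart, and the libraries within each were close. The difference was 1.77 on the log2 scale (SE 0.19, edgeR adjusted p = 0.0304), the largest estimate of the set. Against the summed TPM of the pan-endothelial genes, Cpe amounted to 2.465% and 2.715% in tdTomato+ cells and to 0.616% and 0.658% in ZsGreen+ cells. Cpe was not called without tdTomato+ replicate 1 (1.85, edgeR adjusted p = 0.0761), tdTomato+ replicate 2 (1.70, edgeR adjusted p = 0.2) or ZsGreen+ replicate 2 (1.67, edgeR adjusted p = 0.0534).

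Of 11 relatives of Cpe and genes of prohormone processing, 6 were tested and none was called by edgeR (3 at an unadjusted p under 0.05; DESeq2 called 2); their median log2 fold change was -0.13. Pcsk5, a proprotein convertase, read 86.7 and 103 CPM against 52.6 and 56.8 CPM (0.79, SE 0.18). Furin, a widely expressed convertase, stood at 194 and 191 CPM against 235 and 296 CPM, and Cpd, carboxypeptidase D, at 74.6 and 83.7 CPM against 88.2 and 122 CPM. Chga, the granule protein chromogranin A, read 5.23 and 15.3 CPM against 1.20 and 0.876 CPM (3.30, SE 0.62, edgeR adjusted p = 0.129). Pcsk1, the convertase of endocrine granules, had no count in any library.

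Car8 encodes a carbonic anhydrase-related protein that lacks the enzyme's activity and binds the inositol trisphosphate receptor Itpr1. It was the scarcest venous gene, at 31.1 and 33.1 CPM in the tdTomato+ pair and at 10.2 CPM in each ZsGreen+ library. Replicates were almost equal in both groups, and the groups did not overlap. The difference was 1.65 on the log2 scale (SE 0.21, edgeR adjusted p = 0.0465), just under the threshold. The call ended without tdTomato+ replicate 1 (1.69, edgeR adjusted p = 0.188), tdTomato+ replicate 2 (1.63, edgeR adjusted p = 0.404) or ZsGreen+ replicate 2 (1.65, edgeR adjusted p = 0.0901). Car8 was also not called with limma-voom (adjusted p = 0.0637), with library sizes from pan-endothelial genes (edgeR adjusted p = 0.102) or with limma on log2(TPM + 1) (adjusted p = 0.132, and 0.314 with no filter) and log2(TPM + 0.1) (adjusted p = 0.143).

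The receptor Itpr1 read 48.6 and 39.3 CPM against 23.3 and 25.7 CPM (0.84, SE 0.21), above ZsGreen+ in both tdTomato+ libraries but not called (edgeR adjusted p = 0.236). Of the catalytic carbonic anhydrases in the list, Car4, the membrane-bound form of aerocytes, read 28.9 and 30.8 CPM against 76.1 and 53.2 CPM (-1.11, SE 0.23), and Car2, a cytosolic form, at 54.0 and 61.4 CPM against 78.6 and 87.9 CPM (-0.53, SE 0.18). Neither was called. Car5b, a mitochondrial catalytic form outside the list and named after its values were seen, lay above 0 (1.44, SE 0.29, edgeR adjusted p = 0.151). Of the 8 genes listed with Car8, 6 were tested and none passed with edgeR (4 at an unadjusted p under 0.05; DESeq2 called 1).

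Vwf encodes von Willebrand factor, the adhesive glycoprotein that endothelium stores in Weibel-Palade bodies and that captures platelets. Its CPM were 2006 and 2961 in tdTomato+ cells and 947 and 845 in ZsGreen+ cells, a mean of 2484 ± 675 against 896 ± 71.9 (SD, n = 2). The groups did not overlap, and tdTomato+ replicate 2 was the highest library. The log2 fold change of 1.47 (SE 0.25) missed the threshold with an edgeR adjusted p of 0.103. Vwf was called in the fit with the replicate number as a block, described below. Without ZsGreen+ replicate 1 it was called (1.56, edgeR adjusted p = 0.0345), and it was also called by DESeq2 (adjusted p = 7.91e-07), without a filter on low counts (edgeR adjusted p = 0.0203) and with limma on log2(TPM + 1) (adjusted p = 0.0463).

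Among 17 genes of Weibel-Palade bodies and Vwf handling, 15 were tested and none was called by edgeR (5 at an unadjusted p under 0.05; DESeq2 called 2), with a median log2 fold change of 0.14. Both tdTomato+ libraries lay above both ZsGreen+ libraries for 7 of them, beside 19.9% of all tested genes. They lay below for 3, a direction for which no share over all genes was computed. Selp, P-selectin, which shares these granules with Vwf, read 956 and 720 CPM against 387 and 238 CPM (1.42, SE 0.29, edgeR adjusted p = 0.154). Cd63, a granule membrane protein, had 0.69 (SE 0.19) on the log2 scale, and Rab27a and Myrip, which tether granules to the cytoskeleton, had 0.49 (SE 0.17) and 1.94 (SE 0.49).

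Ackr1, the atypical chemokine receptor of postcapillary venules, binds many inflammatory chemokines without G protein signalling. As a ratio of replicates it had the widest spread of the set within ZsGreen+ cells. It stood at 108 and 50.0 CPM in the tdTomato+ pair against 46.1 and 7.50 CPM in the ZsGreen+ pair. Both tdTomato+ libraries were above both ZsGreen+ libraries, but tdTomato+ replicate 2 exceeded ZsGreen+ replicate 1 only narrowly. The log2 fold change of 1.56 had an SE of 0.75 (edgeR adjusted p = 0.644). Ackr1 was called in the fit with the replicate number as a block, described below. Leaving out ZsGreen+ replicate 1 gave 3.40 (edgeR adjusted p = 0.0204), and leaving out ZsGreen+ replicate 2 gave the lowest estimate, 0.77.

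Reads of Ackr1 may be shared with Cadm3, a cell adhesion gene whose annotated last exon overlaps the Ackr1 span on the same strand. Cadm3, named after the overlap was found, stood at 15.0 and 8.24 CPM against 3.23 and 1.04 CPM, in the same order over the libraries as Ackr1 and at a lower level. Of 10 Ackr1 relatives and ligands, 8 were tested and none was called by edgeR (3 at an unadjusted p under 0.05; DESeq2 called 3). Ackr2, a scavenging receptor of lymphatic endothelium, read 80.9 and 118 CPM against 217 and 335 CPM (-1.47, SE 0.28), and Ackr3, a receptor of Cxcl12, at 472 and 554 CPM against 532 and 599 CPM. The ligands Cxcl1 and Cxcl2 had log2 fold changes of 1.4 (SE 0.43) and 1.49 (SE 0.48).

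Slc6a2, the noradrenaline transporter, is a marker of lung venous endothelium and clears amines from the blood. It stood at 178 and 68.9 CPM in the tdTomato+ pair against 73.5 and 33.5 CPM in the ZsGreen+ pair. The groups overlapped, because tdTomato+ replicate 2 lay below ZsGreen+ replicate 1, and the log2 fold change of 1.21 (SE 0.51) was not called (edgeR adjusted p = 0.567). Only the fit with the replicate number as a block, described below, called Slc6a2. Leaving out tdTomato+ replicate 1 gave 0.36 and leaving out ZsGreen+ replicate 1 gave 1.89, neither of them called.

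Genes of amine uptake, breakdown and response were listed with Slc6a2. Of 11 listed, 8 were tested and none was called by edgeR (2 at an unadjusted p under 0.05; DESeq2 called 1), and 7 of the 8 had a log2 fold change below 0. Maoa, monoamine oxidase A, stood at 73.2 and 75.2 CPM against 84.4 and 104 CPM, while the adrenoceptor Adrb1 had a log2 fold change of -1.07 (SE 0.20). The serotonin transporter Slc6a4 was near the floor, at 0.493 to 2.10 CPM.

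Prss23, a secreted serine protease, and Bst1, the surface enzyme CD157 that acts on NAD, varied alike. Prss23 stood at 183 and 364 CPM in the tdTomato+ pair against 79.3 and 195 CPM in the ZsGreen+ pair. Bst1 stood at 37.7 and 89.8 CPM against 19.8 and 51.8 CPM. For both genes replicate 2 was the higher library in each group, and ZsGreen+ replicate 2 exceeded tdTomato+ replicate 1. Neither was called, with log2 fold changes of 1.00 (SE 0.47) for Prss23 and 0.83 (SE 0.53) for Bst1. Leaving out tdTomato+ replicate 2 gave 0.43 for Prss23 and 0.09 for Bst1, and leaving out ZsGreen+ replicate 2 gave 1.78 and 1.68, none of them called. Only the fit with the replicate number as a block, described below, called Prss23 and Bst1. Cd38, the related NAD-consuming surface enzyme, stood at 91.8 and 114 CPM against 77.4 and 135 CPM, and none of the 7 NAD genes listed with Bst1 was called by edgeR or DESeq2 (0 at an unadjusted p under 0.05). Of 5 relatives of Prss23 and Amigo2, the secreted protease Htra1 had the smallest p, at 108 and 142 CPM against 42.8 and 25.6 CPM (1.87, SE 0.29, edgeR adjusted p = 0.0809).

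**Figure D3:**
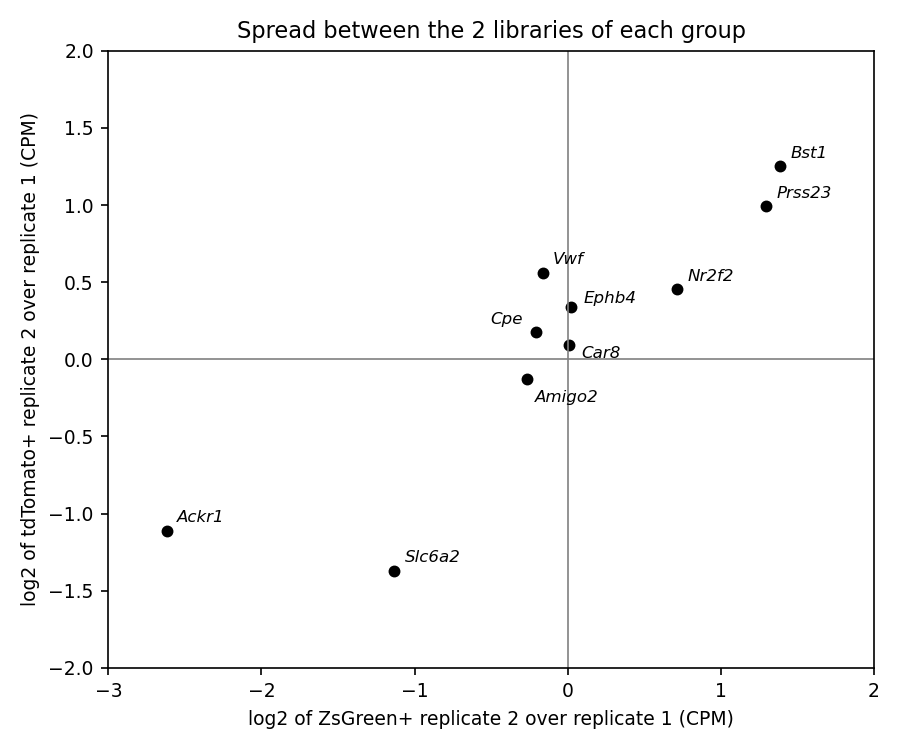
Log2 ratio of replicate 2 to replicate 1 in ZsGreen+ cells (horizontal) and in tdTomato+ cells (vertical) for each venous gene, from CPM. Bst1 and Prss23 stand at the upper right, Ackr1 and Slc6a2 at the lower left, and Cpe, Car8, Ephb4 and Amigo2 near 0 on both axes.

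The spread within groups thus ran in opposite directions for different venous genes. Replicate 2 exceeded replicate 1 in both groups for 5 genes, by 1.99-fold and 2.45-fold for Prss23 and by 2.38-fold and 2.61-fold for Bst1 in tdTomato+ and ZsGreen+ cells. Replicate 1 exceeded replicate 2 in both groups for 3 genes, by 2.59-fold and 2.19-fold for Slc6a2 and by 2.16-fold and 6.14-fold for Ackr1. Between libraries of the same number, 9 of the 10 venous genes were higher in the tdTomato+ library both times, as were 29.8% of all tested genes. Macrophage and monocyte markers were measured beside them, and their sum over 11 genes was higher in replicate 1 of both groups, at 5443 and 2596 CPM in the tdTomato+ pair against 3010 and 710 CPM in the ZsGreen+ pair. Lyz2 and Chil3 made up most of that sum, while Ly6c2 and Marco were higher in replicate 2 of both groups and Mrc1 in replicate 2 of the ZsGreen+ pair, genes picked out after their values were seen. None of the 11 was called by edgeR (3 at an unadjusted p under 0.05; DESeq2 called 1), and none was at 0 in every library. Their part in the levels of Ackr1 and Slc6a2 was not tested.

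Nr2f2 and Ephb4, the developmental regulators of the set, did not separate the groups. Nr2f2 stood at 40.5 and 55.5 CPM in the tdTomato+ pair against 31.7 and 52.1 CPM in the ZsGreen+ pair, with a log2 fold change of 0.20 (SE 0.29, edgeR adjusted p = 0.926). Ephb4 stood at 277 and 350 CPM against 324 and 329 CPM, with -0.06 (SE 0.20, edgeR adjusted p = 0.975). The ZsGreen+ values of Ephb4 lay between its tdTomato+ values. The sign of both small differences depended on the libraries or on the scale used; for Ephb4 it was above 0 on the TPM scale.

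**Figure D4:**
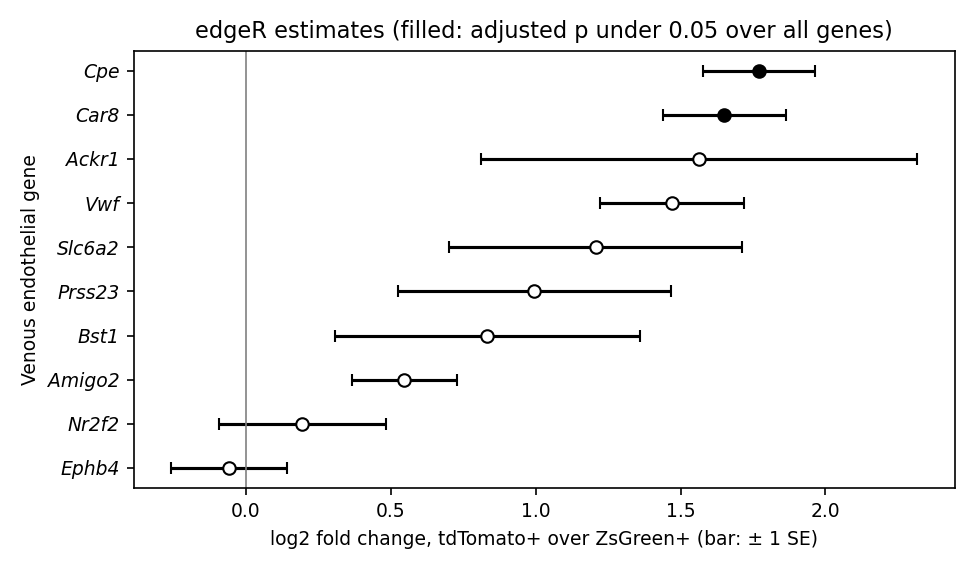
Log2 fold change of each venous gene, tdTomato+ over ZsGreen+, with bars of 1 SE; filled points have an edgeR adjusted p under 0.05. Cpe (1.77) and Car8 (1.65) are the only filled points, and Nr2f2 (0.20) and Ephb4 (-0.06) lie next to 0.

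Amigo2, a leucine-rich repeat adhesion molecule, stood at 91.4 and 83.6 CPM in the tdTomato+ pair against 65.4 and 54.3 CPM in the ZsGreen+ pair. The groups did not overlap, but the log2 fold change was small, 0.55 (SE 0.18, edgeR adjusted p = 0.42). Its relative Amigo1 stood the other way, at 15.1 and 18.1 CPM against 23.2 and 27.6 CPM. The 5′ end of Amigo2 overlaps that of Pced1b on the opposite strand, and Pced1b, named after the overlap was found, stood at 41.6 and 36.1 CPM against 39.5 and 25.1 CPM.

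None of 8 relatives and regulators of Nr2f2 was called by edgeR or DESeq2 (1 at an unadjusted p under 0.05). Its paralog Nr2f6 stood at 85.5 and 108 CPM against 115 and 99.5 CPM. None of 11 genes of the Notch arm, which Nr2f2 opposes, was called by edgeR (4 at an unadjusted p under 0.05; DESeq2 called 1), with a median log2 fold change of -0.15. Hey2, an arterial target of Notch, read 9.02 and 13.4 CPM against 3.23 and 2.52 CPM (1.96, SE 0.38, edgeR adjusted p = 0.144), while its relative Hey1 read 97.1 and 85.8 CPM against 166 and 110.5 CPM (-0.60, SE 0.23). Efnb2, which encodes the EphB4 ligand ephrin-B2, stood at 167 and 219 CPM against 166 and 172 CPM, and of 8 genes listed with Ephb4 6 were tested and none passed with edgeR or DESeq2 (1 at an unadjusted p under 0.05).

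Upstream windows of 250 bases are shown for Nr2f2, Ephb4 and Amigo2, the 3 members with the smallest change, because these windows differ widely in base composition. Each window lies before 1 start of its gene. The genes have 7, 2 and 3 listed transcripts, and windows at other starts may differ. The windows run 5′ to 3′ on the gene's strand up to the base before that start, from RefSeq on GRCm38.p6, and capitals mark CpG dinucleotides. The Nr2f2 window is chr7:70366747-70366996 on the minus strand and lies in an exon of the noncoding gene B130024G19Rik of the opposite strand, the Ephb4 window is chr5:137349859-137350108 on the plus strand, and the Amigo2 window is chr15:97247288-97247537 on the minus strand, within an intron of Pced1b.
Nr2f2: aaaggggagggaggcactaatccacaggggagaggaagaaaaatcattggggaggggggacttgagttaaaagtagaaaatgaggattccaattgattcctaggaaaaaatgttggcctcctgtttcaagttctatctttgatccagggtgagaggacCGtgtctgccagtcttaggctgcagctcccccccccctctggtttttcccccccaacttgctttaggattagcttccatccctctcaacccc
Ephb4: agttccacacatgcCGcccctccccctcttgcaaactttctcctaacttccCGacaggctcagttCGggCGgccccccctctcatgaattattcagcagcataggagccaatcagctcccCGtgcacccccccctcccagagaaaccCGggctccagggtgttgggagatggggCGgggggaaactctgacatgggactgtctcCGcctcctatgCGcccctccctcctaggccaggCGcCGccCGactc
Amigo2: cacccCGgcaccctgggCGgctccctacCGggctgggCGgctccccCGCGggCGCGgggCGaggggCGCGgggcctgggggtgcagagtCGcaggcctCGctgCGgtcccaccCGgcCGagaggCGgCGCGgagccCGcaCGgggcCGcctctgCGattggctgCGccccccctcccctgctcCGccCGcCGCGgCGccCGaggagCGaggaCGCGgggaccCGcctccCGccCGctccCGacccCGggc
CpG dinucleotides numbered 1 in the Nr2f2 window, 12 in that of Ephb4 and 38 in that of Amigo2, where the median over 32851 windows of this length was 6. The shares of G and C were 50.0%, 64.0% and 84.0%, against a median of 52.4%.

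RefSeq windows were found for 5 of the 10 genes, namely these 3, Ackr1 and Prss23. The COUP-TF half-site AGGTCA, searched on both strands, occurred in the Ackr1 window and in 2 overlapping windows of the 7 listed for Prss23, and in 14.0% of all windows. The GATA site AGATAA occurred in 1 Prss23 window (9.99% of all windows). The ETS core CCGGAA (12%) and the TATA box TATAAA (12.4%) occurred in none of these members' windows. None of the 4 motifs contains another. A match in such a window is a description of letters and says nothing of binding.

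Vein genes outside the set gave a mixed picture. Of the 4 leukocyte adhesion genes of veins, Vcam1 rose, at 294 and 276 CPM against 83.2 and 58.8 CPM (2.00, SE 0.22, edgeR adjusted p = 0.0305), and Sele, E-selectin, read 577 and 471 CPM against 211 and 150.5 CPM (1.54, SE 0.24, edgeR adjusted p = 0.0832). Of 13 other vein-associated endothelial genes none was called by edgeR (5 at an unadjusted p under 0.05; DESeq2 called 4), and their median log2 fold change was 0.33. Both tdTomato+ libraries lay above both ZsGreen+ libraries for 8 of the 13, beside 19.9% of all tested genes. Adgrg6, an adhesion G protein-coupled receptor, had 2.33 (SE 0.50), Ptgis, prostacyclin synthase, 0.89 (SE 0.22), and Cd200, an immunoregulatory surface protein, 0.87 (SE 0.19). Flt4, a growth factor receptor of veins and lymphatics, lay lower (-1.04, SE 0.20).

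**Figure D5:**
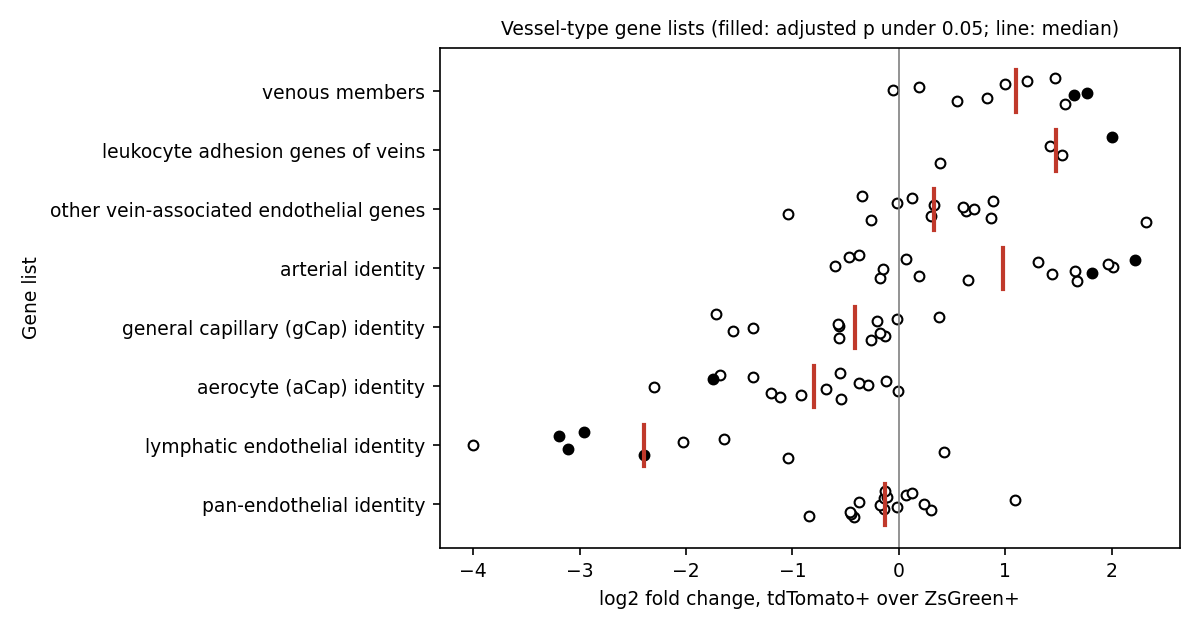
Log2 fold change of each tested gene in 8 lists of vessel-type genes, tdTomato+ over ZsGreen+, with a red line at the median and filled points for an edgeR adjusted p under 0.05. The venous genes (median 1.10) and arterial genes (0.98) lie mostly above 0, the capillary and lymphatic lists mostly below.

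Genes of other vessel types were listed for comparison. Over 16 arterial genes the median log2 fold change was 0.98, and 2 rose. They were Mgp, matrix Gla protein, with 2.22 (SE 0.23), and Fbln2, a matrix fibulin, with 1.81 (SE 0.17). At an unadjusted edgeR p under 0.05 stood 9 arterial genes, and DESeq2 called 8. Of the 16, 11 lay above 0, beside 49.3% of all tested genes, and 5 lay below, among them Hey1 (-0.60, SE 0.23). Efnb2, also in that list, had 0.19 (SE 0.20), and neither was called. Over 12 general capillary genes the median was -0.41 with none called by edgeR (4 at an unadjusted p under 0.05, and DESeq2 called 3). Over 14 aerocyte genes it was -0.80 with 1 fall, Prx, periaxin (-1.74, SE 0.20). Of these genes 10 stood at an unadjusted edgeR p under 0.05, and DESeq2 called 6. Over 9 lymphatic genes the median was -2.39 with 4 falls, in Thy1, Fxyd6, Mmrn1 and Reln. Here 8 stood at an unadjusted edgeR p under 0.05, and DESeq2 called 7. Of all 13177 tested genes, 22 were called higher and 18 lower. Lymphatic endothelium also expresses Nr2f2. The lymphatic list summed to 720 and 1016 CPM in the tdTomato+ pair against 986 and 1289 CPM in the ZsGreen+ pair. Lyve1, picked out after its values were seen, made up 503 and 840 CPM of these sums against 407 and 593 CPM. It was the 1 lymphatic gene with a log2 fold change above 0 (0.42, SE 0.31), and the other 8 lay below 0. The part of lymphatic cells in the Nr2f2 level was not tested. The lists differ in size and genes, and no difference between them was tested.

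Some venous genes are also read in other cell types, whose markers were measured in the same libraries. Fibroblast markers, relevant to Nr2f2, Prss23 and Cpe, summed over 14 genes to 465 and 706 CPM in the tdTomato+ pair against 296 and 241 CPM in the ZsGreen+ pair. None of the 14 was called by edgeR (7 at an unadjusted p under 0.05, and DESeq2 called 5), and none was at 0 in every library. For 7 of them both tdTomato+ libraries lay above both ZsGreen+ libraries, beside 19.9% of all tested genes. Platelet markers, relevant to Vwf, summed over 8 genes to 28.7 and 23.6 CPM against 41.3 and 19.8 CPM, and Pf4, their most abundant gene, did not separate the groups. Erythroid markers, relevant to Ackr1, summed over 7 genes to 19.3 and 33.9 CPM against 35.2 and 39.4 CPM, with Slc4a1 at 0. Of the neuron and neuroendocrine markers, relevant to Slc6a2 and Cpe, 3 were tested and none was called by edgeR (2 at an unadjusted p under 0.05; DESeq2 called 1); their sum was 10.4 and 22.2 CPM against 3.92 and 4.71 CPM, with Dbh and Resp18 at 0. Within that list Chga and the synaptic vesicle protein Syp lay higher in both tdTomato+ libraries, Syp at 2.37 and 5.20 CPM against 1.46 and 1.48 CPM, while the vesicular transporter Slc18a2 overlapped between the groups. Alveolar and airway markers summed over 10 genes to 432 and 518 CPM against 272 and 527 CPM, with Krt5 at 0 and none of 9 tested called by edgeR (3 at an unadjusted p under 0.05; DESeq2 called 2, Sftpb and Sftpc). Scgb1a1, an airway gene picked out after its values were seen, made up 384 of the 527 CPM of ZsGreen+ replicate 2. It stood at 47.6 and 54.4 CPM in the tdTomato+ pair and at 17.7 CPM in ZsGreen+ replicate 1. The surfactant gene Sftpb stood at 74.2 and 111 CPM against 38.5 and 33.8 CPM, and Sftpc at 251 and 282 CPM against 163 and 68.4 CPM. Smooth muscle and pericyte markers summed over 14 genes to 1672 and 2369 CPM against 1421 and 1017 CPM, with Acta2 the 1 of 13 tested that rose. Tagln and Acta2 made up most of each sum, with Tagln at 1336 and 1787 CPM against 1300 and 894 CPM. Myh11 stood at 4.07 and 7.67 CPM against 2.85 and 4.71 CPM. Tagln and Myh11 were picked out after their values were seen. Cardiomyocyte markers of pulmonary vein muscle summed to between 16.3 and 23.0 CPM over 11 genes in all 4 libraries, with Ryr2 at 0. The part of these cells in the levels of the venous genes was not tested.

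The genes whose values over the 4 libraries lay closest to the median profile of the venous set were Fmo2, Rasl11a, Ulk3, Sgsm2 and Dram1. Likeness was the Euclidean distance between log2 CPM centred on each gene's mean, which was 0.11 to 0.17 for these genes among 9982 compared. Fmo2, a flavin-containing monooxygenase abundant in lung, stood at 63.2 and 79.8 CPM against 31.5 and 32.5 CPM, a profile near that of the set's middle. With 4 libraries such likeness rests on few points, and none of the 5 genes was called.

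In GRCm38, as the table gives them, Cpe spans 64592542 to 64693109 and Slc6a2 92960470 to 93001667 on chromosome 8, Car8 8141493 to 8239041 on chromosome 4, Vwf 125552935 to 125686679 on chromosome 6, and Ackr1 173331886 to 173333503 on chromosome 1. Prss23 spans 89507783 to 89527187 and Nr2f2 70351946 to 70366746 on chromosome 7, Bst1 43818880 to 43843985 and Ephb4 137350109 to 137374522 on chromosome 5, and Amigo2 97244074 to 97247287 on chromosome 15. RefSeq on the same assembly gives the same span for 8 of the 10.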

How the data were processed

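Per the labels' protocols, RNeasy Micro RNA was amplified as whole transcriptome and made into libraries for MGI sequencing; the protocols name no molecular identifiers, and amplified reads need not be separate molecules. The table the authors deposited holds estimated counts, with decimals in 16.22% to 17.95% of values, and TPM, each column summing to about 1000000; its FPKM and normalized signal columns, also deposited, were not used. The submitters' processing notes name RSEM 1.3.1 and DESeq2 1.4.5 and the mm10 and GRCm38 builds; the sources used here do not give strandedness, and reads of overlapping genes cannot be told apart.

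Counts were rounded. edgeR 4.0.16 (R 4.3.3) fitted all 4 libraries with a two-sided quasi-likelihood F-test, TMM scaling and filterByExpr (minimum count 10), with Benjamini-Hochberg adjustment over 13177 genes; SE divides the size of the log2 fold change by the root of F. The script was tested on simulated data. With 2 libraries a group no single-gene permutation test is informative. Alternatives used DESeq2 1.42.0, limma 3.58.1 on counts (voom) and on log2 TPM plus 1 or 0.1 (genes at 1 TPM in 2 libraries), other scalings and filters, a replicate block, and each library left out. From each further list, up to 4 genes averaging 1 CPM or more may be named, by smallest p, plus direct partners of members; likeness was ranked among genes at 5 CPM or more. Members and lists were chosen with earlier results of these data known.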

Additional observations from a re-analysis of the deposited data

How the results depend on the processing

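The median log2 fold change of the venous genes stayed between 0.91 and 1.29 in every alternative run, and the count of venous genes called depended on the test and on single libraries. Against 2 in the test reported, it was 7 with the replicate block, 1 with limma-voom, with library sizes from pan-endothelial genes and with log2(TPM + 0.1), and 0 with log2(TPM + 1) and no filter (1508 of 16755 genes at an unadjusted p under 0.05; DESeq2 called 3 venous genes). It ranged from 0 to 4 when each library was left out. The count over all genes, 40, became 330 with DESeq2, 128 without a filter, 934 with the replicate block, 12 with pan-endothelial library sizes, 22 with log2(TPM + 0.1) and 0 with log2(TPM + 1) and no filter, and ranged from 4 to 304 when each library was left out. Of the 40 calls 22 were higher; of 12 with pan-endothelial sizes 11 were, and of 934 in the block 679. Pan-endothelial sizes moved the median of all genes to 0.18 and that of the venous genes to 1.29.

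Same-numbered libraries share only a number in the labels; their deviations from the group means correlated at 0.454 across genes. With the number as a block, Slc6a2, Vwf, Car8, Prss23, Bst1, Cpe and Ackr1 were called, all higher. With 4 libraries the block fit leaves less to estimate each gene's own variance than the fit without a block, and little in itself. Both fits share variance across genes, and how far the calls of either rest on that sharing was not tested. Ephb4 changed sign to 0.13 with pan-endothelial sizes, to 0.08 on each TPM scale (0.0824 with log2(TPM + 1), filtered or not, and 0.083 with log2(TPM + 0.1)), and ranged from -0.22 to 0.10 with libraries left out. Nr2f2 ranged from -0.12 to 0.60 over those. The cause of these changes was not tested.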

Other observations

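The deposited table places Prss23 on the plus strand, whereas GENCODE M21 and the RefSeq windows on the same assembly place it on the minus strand with the same span of 89507783 to 89527187. GENCODE M21 also starts Ackr1 further upstream than the table does, at 173333750 rather than 173333503 on the minus strand of chromosome 1, inside the last exon of Cadm3. The 5′ end of Bst1 overlaps Fbxl5 on the opposite strand, and Fbxl5 stood at 52.1 and 62.0 CPM in the tdTomato+ pair against 47.2 and 71.0 CPM in the ZsGreen+ pair. How these annotations bear on the counts of Prss23, Ackr1 and Bst1 was not tested.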
